A study of Homo sapiens with 2 samples.

Results

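Edited loci that had no isoform model lay mostly in the introns of protein-coding genes, were covered by few reads, and carried C-to-U edits in the sequence context that the deaminase prefers. RBFOX2-INSCRIBE held 1228 such loci among the 10199 in its table of edits (12.04%, 95% exact Clopper-Pearson interval 11.4 to 12.7). The enzyme-only control held 1302 of 10182 (12.8%, 12.1 to 13.5), and 2062 of 12178 loci listed in either library had no model. A locus is an identifier of the form that PacBio collapsing gives to a group of reads. It was a member when none of the 119827 deposited isoforms, which belong to 12869 loci, carried its identifier. The label of the isoform set calls it filtered, and whether that filter removed models of these loci was not tested. Whether the tables of edits and the isoform table come from 1 collapse was not tested, and 6 members carried numbers beyond those of the isoform table. Sites of 2 members lay on more than 1 chromosome or strand. An edited site is a distinct genome position and strand with at least 1 converted read.

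The data came from 2 libraries of HEK293T cells, an immortalized human embryonic kidney line that the labels call HEK293XT. In INSCRIBE, fixed and permeable cells receive an antibody against an RNA-binding protein and then APO1-Nb, a fusion of the cytidine deaminase APOBEC1 with a nanobody that recognises rabbit IgG, so that cytosines near the protein are deaminated in place. RBFOX2-INSCRIBE came from cells given rabbit anti-RBFOX2 and APO1-Nb, the enzyme-only control from cells given APO1-Nb without that antibody, and both were sequenced as PacBio Iso-Seq long cDNA reads. Each group had 1 library, so every comparison below is between 2 libraries, no test between conditions was possible, and intervals cover counting error only. Sites on the same cDNA read are not independent, and the tables do not tie sites to reads.

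Long cDNA reads usually start at a poly(A) tail, and reads from one gene that share exons are collapsed into isoform models. RBFOX2 is a splicing regulator whose RNA recognition motif binds UGCAUG, often within introns that flank alternative exons, and rat APOBEC1 prefers cytosines that follow A or U.

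The sequences that carry these results are short. In the first set, capitals mark the hexamer TGCATG, the DNA spelling of UGCAUG, and the cytosines edited in RBFOX2-INSCRIBE. They are the sites near a hexamer with the most converted reads among those that fit within 30 bases. All are hg38, 5′ to 3′ on the transcribed strand: the EIF2S3 locus at chrX:24077598-24077627 (+), the WLS locus at chr1:68109516-68109544 (-) and the RPS24 locus at chr10:78038025-78038053 (+).
EIF2S3: ttTGCATGaaaaggaaatgaatggattCga
WLS: catTGCATGcctatttctgtgaCttCata
RPS24: CtgagtttgctttgatgatgcttTGCATG

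In the second set, capitals mark edited cytosines in the 30 bases with most unshared sites at the 5 loci that had most of them. They show NFIA at chr1:61090452-61090481 (+), C5orf15 at chr5:133960367-133960396 (-), MYCBP2 at chr13:77265454-77265483 (-), CSNK2A2 at chr16:58162885-58162914 (-) and DCAF8 at chr1:160221158-160221187 (-). NFIA had 4 unshared sites in this stretch, 2 of them in RBFOX2-INSCRIBE, and all 4 followed A or T. C5orf15 had 3 sites and MYCBP2 had 3, all after A or T. CSNK2A2 had 4 sites, 3 of them after A or T, and none of the 4 was listed in RBFOX2-INSCRIBE. DCAF8 had 5 sites, 4 of them after A or T and 4 in RBFOX2-INSCRIBE.
NFIA: taagttttCgtCttaaaCatttCtctgtta
C5orf15: ctggaCaaggtaaCtgaaatccaCaccctt
MYCBP2: attCtttaaacctcggcttatCttaCagat
CSNK2A2: cagggtCatCtgaaaCtcaagCaactcaga
DCAF8: CtcccaggccagcatttgtCcattCtCCaa

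The loci held few of the edits. In RBFOX2-INSCRIBE they carried 2956 of 121930 sites (2.42%, 2.34 to 2.51) and 12365 of 2431345 reads (0.509%). In the enzyme-only control they carried 2972 of 103684 sites (2.87%, 2.77 to 2.97) and 13439 of 2233600 reads (0.602%). These read totals are sums of the reads the tables give for each listed locus.

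The loci were intronic. By GENCODE on the same strand, 80.5% of their sites in RBFOX2-INSCRIBE (79.0 to 81.9) and 83.5% in the enzyme-only control (82.1 to 84.8) lay in an intron and in no exon. Among the sites of loci with a model, the intronic shares were 0.980% and 1.11%. Nearly all of those sites lay in exons of isoform models, so this contrast may follow in part from how members were defined. Median distances of the intronic sites to the nearest exon of any isoform model of that strand were 3084 and 2727 nt, and 72.3% and 73.6% of them were over 1000 nt away. Non-coding exons, such as those of retained-intron transcripts, held 7.58% and 5.92% of the sites. The 3'UTR held 6.43% in RBFOX2-INSCRIBE and 4.98% in the enzyme-only control, against 42.8% and 37.6% at loci with a model. Coding sequence held 3.18% and 3.47%, against 49.4% and 53.3%. In both libraries introns thus came first, then non-coding exons, the 3'UTR and coding sequence, and the shares differed between libraries by no more than 3 percentage points at loci without a model. The smallest classes changed places: the 5'UTR held 1.25% and 0.875% of the sites, and 0.778% and 1.18% were intergenic.

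**Figure D1:**
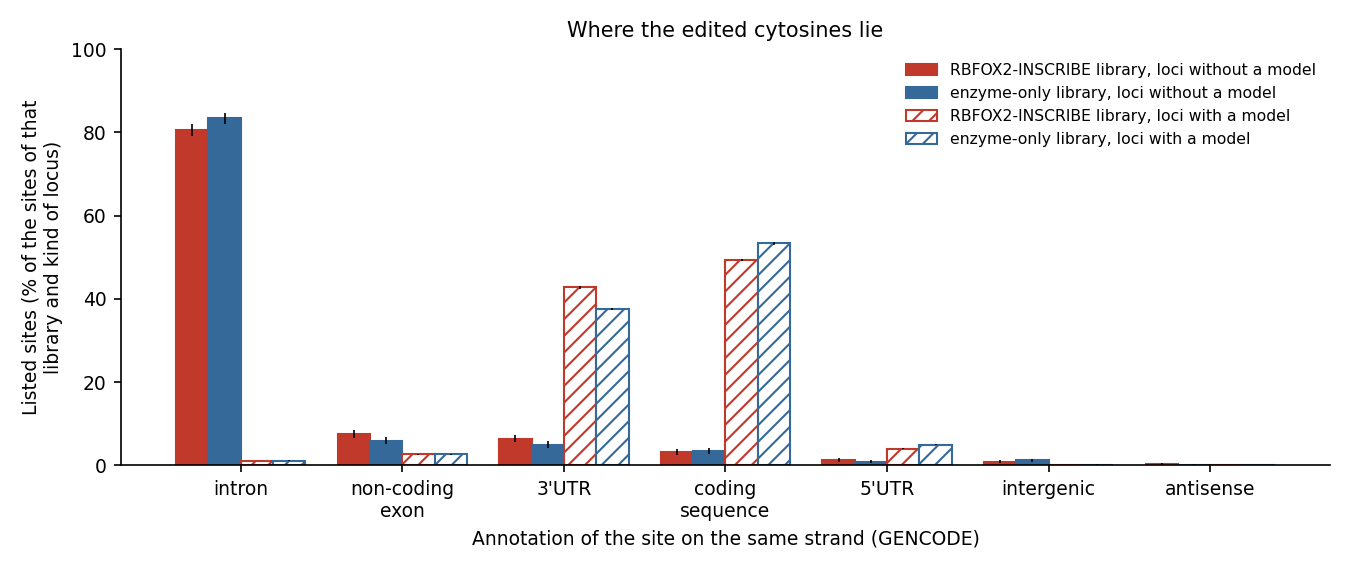
Share of listed sites (y axis, percent) in each GENCODE annotation class (x axis), for loci without a model (filled bars) and with a model (hatched bars) in the RBFOX2-INSCRIBE (red) and enzyme-only (blue) libraries, with 95% exact intervals from counting. Introns hold 80.5% and 83.5% of the sites of loci without a model, while coding sequence and 3'UTR hold most sites of loci with one.

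All sites lay inside the genomic span of a modelled locus of the same strand, 2956 of 2956 in RBFOX2-INSCRIBE and 2972 of 2972 in the enzyme-only control. The same held for every site of loci with a model, whose own spans counted. The tables thus list no edit outside such spans, and transcripts elsewhere were not analysed here. Exons of those surrounding models overlapped 13.3% of the sites of loci without a model in RBFOX2-INSCRIBE and 10.9% in the enzyme-only control. For loci with a model the shares were 99.6% and 99.5%, but there the exons of their own models counted. A locus without a model has no such exons, so this contrast follows at least in part from how members were defined. The surrounding locus was itself listed as edited for 83.6% of the loci in RBFOX2-INSCRIBE and 82.7% in the enzyme-only control. Where it was listed it had a median of 173 and 162 reads, and a locus without a model had a median of 2.78 and 3.19 reads per 100 reads of its surrounding locus. Only 14 loci in RBFOX2-INSCRIBE and 6 in the enzyme-only control had as many reads as the surrounding locus or more.

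The share of loci on protein-coding genes was close to that of loci with a model. Protein-coding genes held 93.9% of the loci in RBFOX2-INSCRIBE (92.4 to 95.2) and 94.1% in the enzyme-only control (92.7 to 95.3), beside 94.1% and 94.3% of the loci with a model. What differed was the part of the gene. Of loci without a model, 76.7% and 78.7% touched a protein-coding gene in introns alone, against 0.301% and 0.293% of loci with a model. The limit given above for the intronic shares applies here too. Genes for lncRNAs held 3.75% and 3.53% of the loci, beside 4.64% and 4.50% of loci with a model, and pseudogenes held 0.733% and 1.08%, beside 0.602% and 0.586%. Intergenic loci made up a larger share without a model, 0.896% (0.448 to 1.60) in RBFOX2-INSCRIBE and 0.922% (0.477 to 1.60) in the enzyme-only control. Of loci with a model they made up 0.234% (0.145 to 0.358) and 0.180% (0.103 to 0.292). Over both libraries, 8 loci were antisense to a gene and 21 were intergenic.

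Few edited loci of either kind fell on mitochondrial, histone or small structural RNA genes. Mitochondrial genes, 37 in all, had 1 locus, on MT-ND1, a subunit gene of respiratory complex I, with 230 reads and 4 sites in the enzyme-only control and no listing in RBFOX2-INSCRIBE, while 1 locus with a model lay on these genes. The 85 replication-dependent histone genes, whose messages end in a stem-loop, had 1 locus, on H4C14, with 5 reads and 2 sites in the enzyme-only control alone, while 7 loci with a model lay on these genes. None of 5156 genes for small structural RNAs had a locus, with or without a model. A list of 20 lncRNAs, many of them nuclear, had 1 locus, in an intron of PVT1, with 1 read and 1 site in the enzyme-only control, while 15 loci with a model lay on these genes.

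Loci were often several to a gene. The 2033 loci on an annotated gene fell on 1407 genes, and 389 of these genes had at least 2 loci, which together made 1015 loci. Genes with at least 4 loci numbered 52. The genes named next were chosen after their values were seen, as those with the most loci. SLIT2, which encodes a secreted axon guidance protein, had 15 loci over chr4:20268498-20519231 (+). All 27 of its sites were intronic, and its loci had 1 to 16 reads in RBFOX2-INSCRIBE and 1 to 13 in the enzyme-only control. HNRNPC, which encodes a protein that binds nascent pre-mRNA, had 10 loci with 2 to 43 and 4 to 32 reads, and 30 of its 35 sites were intronic. PRRC2C had 9 loci, with 37 of 38 sites intronic, and EXOC4, a subunit gene of the exocyst, had 9, with 15 of 15 intronic. SRGAP2B, a gene with near-identical copies among which reads can be split, had 8 loci, with 12 of 30 sites intronic. With 7 loci each followed JARID2, a cofactor gene of Polycomb repressive complex 2, PAWR and CFDP1, with 21 of 21, 12 of 13 and 24 of 24 sites intronic. Of the JARID2 loci 5 were listed in both libraries. For SLIT2, 4 of the 15 loci were listed in both libraries.

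Reads per locus were low. The median was 4 reads in RBFOX2-INSCRIBE (quartiles 2 and 9, highest 835) and 5 in the enzyme-only control (quartiles 2 and 11, highest 405), against 116 and 107 reads at loci with a model. Loci with at most 4 reads made up 52.0% and 47.4%, beside 2.30% and 2.39% of the loci with a model. A minority, 23.9% and 27.7%, had at least 10 reads, and 13.3% and 10.2% had 1 read. The 2 libraries overlapped almost fully in these distributions.

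**Figure D2:**
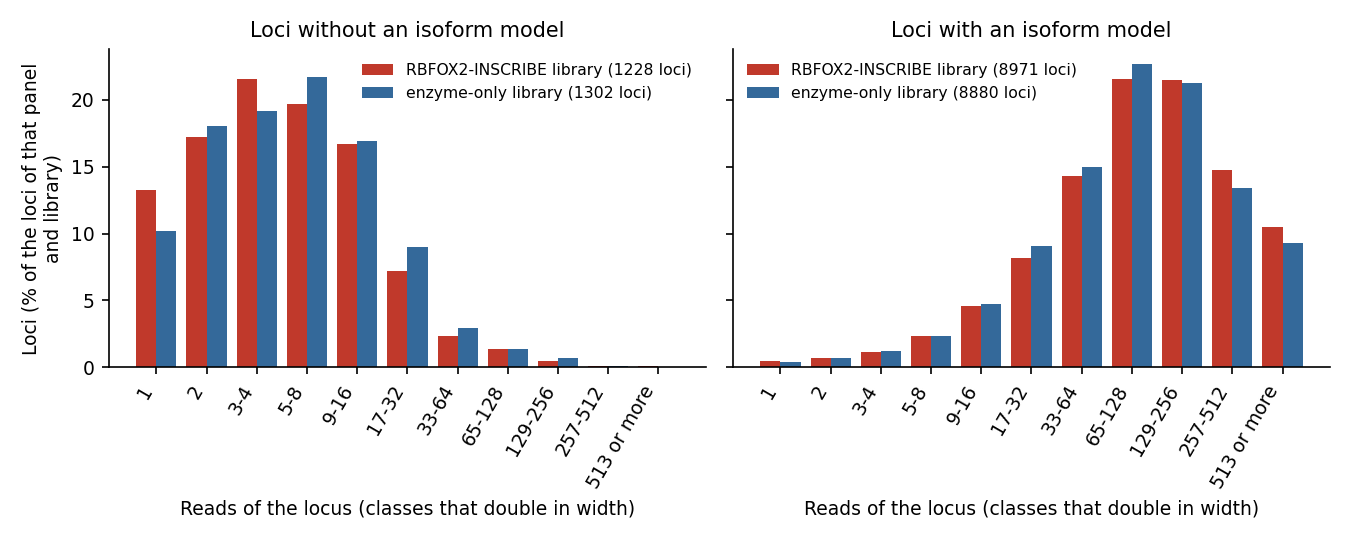
Share of loci (y axis, percent of the loci of that panel and library) in classes of reads per locus that double in width (x axis), for loci without (left) and with (right) an isoform model in the RBFOX2-INSCRIBE (red) and enzyme-only (blue) libraries. Loci without a model centre on 4 and 5 reads and loci with a model on 116 and 107.

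A list that admits a locus only when it has an edit turned over between libraries at this depth. Of the 2062 loci, 468 (22.7%, 20.9 to 24.6) were listed in both libraries, 760 in RBFOX2-INSCRIBE alone and 834 in the enzyme-only control alone, while 76.5% of loci with a model were listed in both. The share followed the reads. It was 8.92% for loci with at most 4 reads in their better covered library, 23.2% for 5 to 9 reads, 50.3% for 10 to 49 and 87.2% for 50 to under 500. Loci with a model had 4.80%, 15.6%, 53.6% and 91.5% in the same classes. The intervals of both kinds of locus overlapped in every class except 5 to 9 reads, where loci without a model had 19.6 to 27.2 and loci with one 12.2 to 19.5. Among the 468 loci in both tables, the ratio of reads in RBFOX2-INSCRIBE to reads in the enzyme-only control had a median of 0.900 (quartiles 0.667 and 1.18), against 1.11 for loci with a model.

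Sites per locus were few and close together. A locus had a mean of 2.41 sites in RBFOX2-INSCRIBE and 2.28 in the enzyme-only control, with a median of 1 in both, and 52.0% and 55.7% had 1 site. Where there were at least 2 sites, they spanned a median of 454.5 and 438.5 nt, and the span was at most 2000 nt for 95.4% and 95.1% of such loci. In loci with 10 to 49 reads there were 16.4 sites per 100 reads in RBFOX2-INSCRIBE (15.3 to 17.6, exact Poisson) and 15.7 in the enzyme-only control (14.7 to 16.7). Loci with a model in that class had 13.5 and 11.9. Depth was not matched within classes, and sites per 100 reads fell as reads rose. In RBFOX2-INSCRIBE, 260 loci without a model held 4637 reads in this class, and 1832 loci with one held 52630. In loci with 50 to under 500 reads the order of the 2 kinds of locus turned, with 7.96 and 6.39 sites per 100 reads without a model and 9.81 and 8.88 with one.

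The same loci can be compared directly where both libraries list them. Over the 468 loci there were 1288 unshared sites on 7669 reads in RBFOX2-INSCRIBE, 16.8 per 100 reads (15.9 to 17.7). There were 1193 on 8358 reads in the enzyme-only control, 14.3 per 100 reads (13.5 to 15.1). An unshared site is one whose position the other library does not list under any locus. Among the 171 loci with at least 10 reads in both, the rates were 11.3 (10.4 to 12.1) and 9.59 (8.86 to 10.4). By number of loci the libraries were close: 70 of the 171 had more unshared sites in RBFOX2-INSCRIBE, 64 in the enzyme-only control and 37 had equal numbers.

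Large differences at single loci ran both ways. Of the 171 loci, 21 had at least 5 more unshared sites in RBFOX2-INSCRIBE and 16 had at least 5 more in the enzyme-only control. The next 3 loci were picked after their values were seen. On BCL11A, a zinc finger transcription factor gene, 81 reads carried 1 unshared site in RBFOX2-INSCRIBE and 116 reads carried 18 in the enzyme-only control. On CHEK1, the gene of a DNA damage checkpoint kinase, 35 reads carried 3 and 52 reads carried 19. On NCAPG2, a condensin II subunit gene, 14 reads carried 18 and 16 reads carried 1. In the 21 loci, 23 of 264 unshared RBFOX2-INSCRIBE sites lay within 50 nt of UGCAUG, in 8 loci. In the 16 loci, 10 of 174 unshared enzyme-only sites did, in 5 loci. Most of these sites had 1 converted read, 242 of 264 and 155 of 174.

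**Figure D3:**
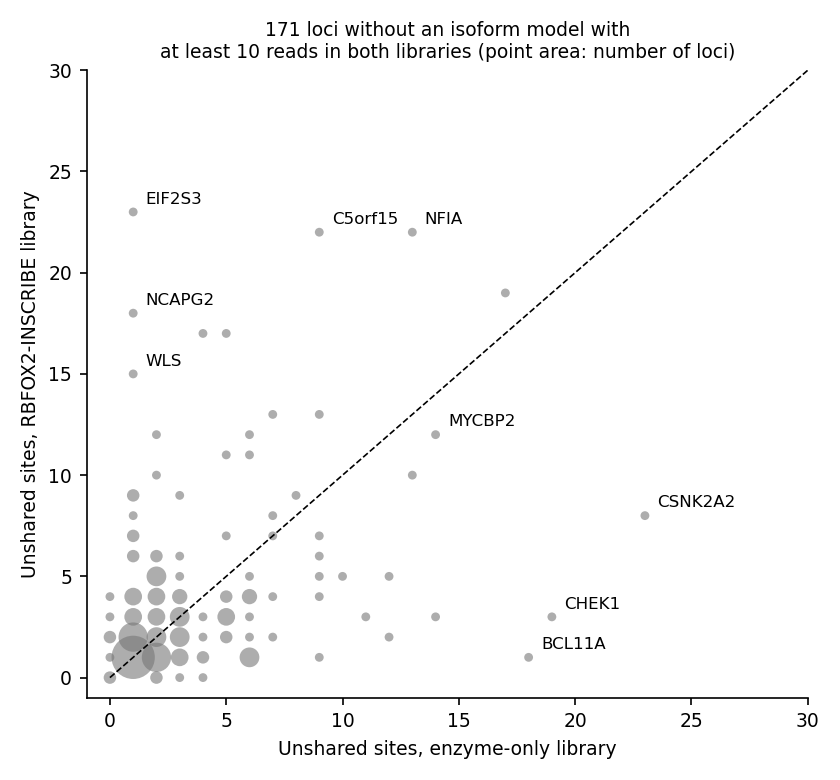
Unshared sites in the enzyme-only control (x axis) and RBFOX2-INSCRIBE (y axis) at the 171 loci without an isoform model that had at least 10 reads in both, with point area proportional to the number of loci and the dashed line marking equality. Points lie on both sides of the line, with 70 loci above it and 64 below.

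Converted reads were few. At least 2 reads were converted at 3.76% of sites in RBFOX2-INSCRIBE (3.10 to 4.50) and 3.73% in the enzyme-only control (3.08 to 4.48), against 16.9% and 12.01% at loci with a model. Listed fractions all exceed 0.2%, so every site of a locus of 500 or more reads has at least 2 converted reads, and such loci gave 10746 of the 20131 sites of that kind with a model in RBFOX2-INSCRIBE. At loci with 10 to 49 reads the shares were 3.03% (1.93 to 4.51) without a model and 3.45% (3.04 to 3.90) with one in RBFOX2-INSCRIBE. In the enzyme-only control they were 3.14% (2.11 to 4.48) and 2.55% (2.18 to 2.95), and the intervals overlapped in both libraries. The edit fraction, converted reads over all reads of the locus, had a median of 16.7% and 14.3%, against 0.483% and 0.491% with a model. With 5 reads or fewer at a locus, 1 converted read gives a fraction of at least 20%. At loci with 1 to 4 reads, 82.9% and 83.9% of the sites had a fraction above 30%, and at loci with 5 to 9 reads 0.873% and 1.99% did. Shared positions made up 4.94% and 5.15% of the sites, against 10.5% and 12.3% for loci with a model. Within classes of reads this order was not kept. At loci with 10 to 49 reads shared positions made up 5.53% (4.01 to 7.40) without a model and 2.80% (2.43 to 3.21) with one in RBFOX2-INSCRIBE, and 4.55% (3.30 to 6.09) and 3.37% (2.95 to 3.84) in the enzyme-only control. At 50 to under 500 reads they made up 11.4% (7.88 to 15.8) and 10.1% (9.90 to 10.3) in RBFOX2-INSCRIBE, and 12.7% (8.85 to 17.5) and 11.99% (11.8 to 12.2) in the enzyme-only control.

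At loci with at least 5 reads, a small group of positions was converted on every read. An intronic site of DAP at chr5:10739119 (-) was converted on 11 of 11 reads in both libraries. An intronic site of PRIM2, a DNA primase subunit gene, at chr6:57440036 (+) was converted on 6 of 6 reads in RBFOX2-INSCRIBE and 12 of 12 in the enzyme-only control. A site in a non-coding exon of WDR20 at chr14:102171439 (+) was converted on 16 of 16 and 7 of 7 reads. In an APP intron, on the gene of the amyloid precursor protein, 5 positions between chr21:25972411 and chr21:25972495 (-) were each converted on 5 of 5 reads in the enzyme-only control and were also listed in RBFOX2-INSCRIBE. At loci with at least 5 reads, 3 sites of RBFOX2-INSCRIBE and 9 of the enzyme-only control had a fraction above 80%, and every one of them was listed in both libraries. These positions were left out of the sequence comparisons below, which use unshared sites. Unshared sites of loci with fewer reads were kept. Among them were those of loci with 1 read, where every listed site is converted on the only read.

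The base before the edited cytosine was mostly A or U. It was A at 35.9% and U at 40.3% of the 2810 unshared RBFOX2-INSCRIBE sites, together 76.2% (74.6 to 77.8). It was C at 13.6% and G at 10.2%. In the enzyme-only control A made 33.8% and U 37.4% of 2819 sites, together 71.2% (69.5 to 72.9). Cytosines of the same strand within 100 nt had A or U at 50.7% and 50.3%, so the sites exceeded them by ratios of 1.50 (1.47 to 1.53) and 1.42 (1.38 to 1.45). Loci with a model had 71.6% and 63.7% over nearby shares of 45.8% and 43.4%, ratios of 1.56 and 1.47. The intervals of the 2 libraries did not overlap at loci without a model, with RBFOX2-INSCRIBE higher.

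Shares by region followed the same order. In introns, A or U preceded 76.0% (74.2 to 77.8) of the unshared sites of RBFOX2-INSCRIBE and 72.5% (70.7 to 74.3) of those of the enzyme-only control. In the 3'UTR the shares were 83.1% (76.7 to 88.3) of 177 and 70.1% (61.6 to 77.7) of 134. In non-coding exons they were 77.8% (71.6 to 83.2) of 212 and 69.1% (61.4 to 76.0) of 165. Set beside the listed modelled loci that surround them, loci without a model had 76.4% against 77.2% in RBFOX2-INSCRIBE and 71.6% against 69.7% in the enzyme-only control. Within a library, loci inside the same genes thus differed by less than 2 percentage points. A G followed the edited cytosine at 6.87% and 7.63% of unshared sites, beside 5.76% and 6.35% of nearby cytosines.

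UGCAUG lay near edited cytosines of RBFOX2-INSCRIBE more often than near other cytosines of the same stretches. The hexamer was within 50 nt on the same strand at 150 of 2810 unshared sites (5.34%, 4.54 to 6.23), against 3.16% of all same-strand cytosines within 500 nt, a ratio of 1.69 (1.43 to 1.97). In the enzyme-only control it was near 77 of 2819 sites (2.73%, 2.16 to 3.40), against 2.42%, a ratio of 1.13 (0.895 to 1.41). Loci with a model had ratios of 1.35 (1.31 to 1.39) and 0.918 (0.879 to 0.958). The interval of RBFOX2-INSCRIBE at loci without a model lay above that at loci with one. Keeping 1 site per locus without a model lowered the ratio to 1.40 (1.04 to 1.84) in RBFOX2-INSCRIBE and 1.01 (0.707 to 1.40) in the enzyme-only control. The first interval then overlapped that of loci with a model, but those kept all their sites, so the measures are unlike. The intervals also overlapped within the same genes: loci set beside their listed surrounding loci had 1.72 (1.45 to 2.03) against 1.47 (1.35 to 1.60) in RBFOX2-INSCRIBE. In the enzyme-only control they had 1.25 (0.974 to 1.57) against 1.03 (0.909 to 1.16).

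The intervals of the ratio overlapped between regions. In introns it was 1.63 (1.35 to 1.95) in RBFOX2-INSCRIBE and 1.11 (0.854 to 1.42) in the enzyme-only control. In non-coding exons it was 2.11 (1.35 to 3.11) and 1.62 (0.748 to 2.99), and in the 3'UTR 1.30 (0.632 to 2.34) and 1.16 (0.317 to 2.89), where the intervals of both libraries included 1. The values for non-coding exons rest on 22 and 9 sites near the hexamer, and several of the 22 lay in 1 locus, on RPS24. Sites near the hexamer fell in 100 loci of RBFOX2-INSCRIBE, 8.46% (6.94 to 10.2) of its loci with an unshared site, and in 63 of the enzyme-only control (5.02%, 3.88 to 6.38). The most in 1 locus were 7 and 5. Of the RBFOX2 sites with at least 2 converted reads, 8 of 72 lay near the hexamer, and of those in the enzyme-only control 1 of 75 did.

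The sites were placed unevenly around the hexamer. In RBFOX2-INSCRIBE, 51 sites lay 1 to 20 nt 3′ of its last base, where nearby cytosines gave an expected 18.1, a ratio of 2.82 (2.10 to 3.71). The enzyme-only control had 20 sites there against 14.1 expected, a ratio of 1.42 (0.869 to 2.20). From 21 to 50 nt 3′ the ratios were 1.62 (1.15 to 2.20) and 1.31 (0.848 to 1.93), and 1 to 20 nt 5′ they were 1.52 (1.00 to 2.21) and 0.861 (0.430 to 1.54). From 51 to 100 nt 5′ RBFOX2-INSCRIBE had a ratio of 1.44 (1.11 to 1.84). The closer class of 21 to 50 nt 5′ had 1.15 (0.774 to 1.64), and 51 to 100 nt 3′ had 1.02 (0.741 to 1.36). Beyond 100 nt on either side every interval included 1. The 51 sites came from 43 loci, with at most 3 in 1 locus, and A or U preceded 46 of them (90.2%, 78.6 to 96.7). Without the locus that held 3, the ratio was 2.68 (1.97 to 3.55).

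**Figure D4:**
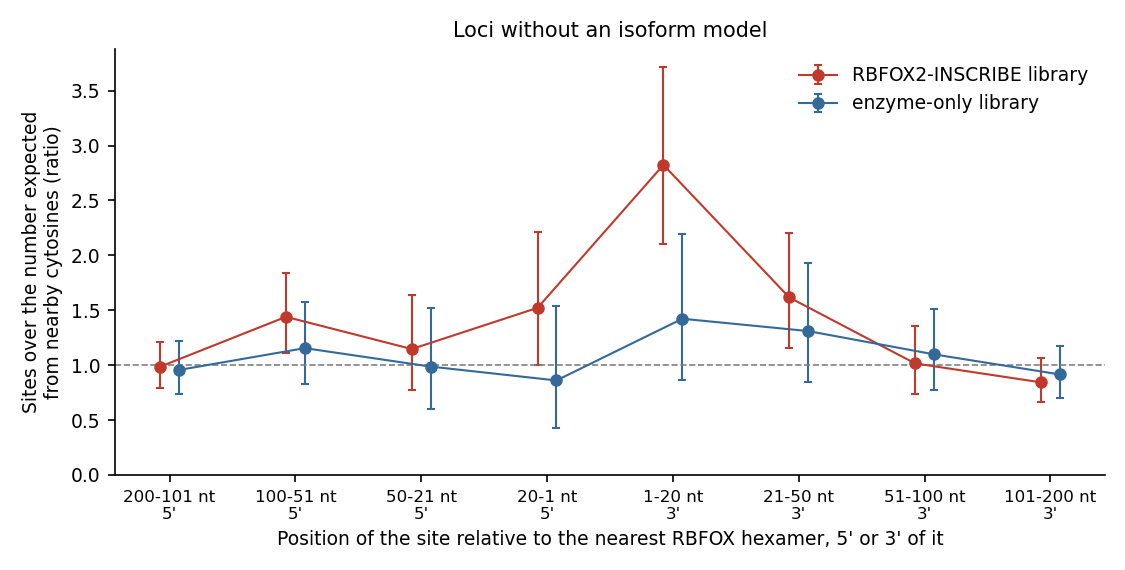
Ratio of unshared sites of loci without an isoform model to the number expected from cytosines within 500 nt (y axis) by distance class 5′ or 3′ of the nearest RBFOX hexamer (x axis), in the RBFOX2-INSCRIBE (red) and enzyme-only (blue) libraries, with 95% exact Poisson intervals and a dashed line at 1. The ratio peaks at 2.82 at 1 to 20 nt 3′ of the hexamer in RBFOX2-INSCRIBE and is 1.42 there in the enzyme-only control.

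EIF2S3 had the locus with most sites in RBFOX2-INSCRIBE. The gene encodes the gamma subunit of the translation initiation factor eIF2, and the locus PB.51073 lay in its 3'UTR at chrX:24077037-24077917 (+). It had 55 reads and 30 sites in RBFOX2-INSCRIBE, and 60 reads and 4 sites in the enzyme-only control. In RBFOX2-INSCRIBE 5 sites lay within 50 nt of UGCAUG and in the enzyme-only control none did. The site printed above, 20 nt 3′ of the hexamer, was converted on 4 of 55 reads, the most of this locus, and 9 sites had at least 2 converted reads. No site of the enzyme-only control had more than 1. All 31 distinct sites also lay in exons of isoform models. The surrounding locus PB.51071 had 351 reads and 40 sites in RBFOX2-INSCRIBE and 305 reads and 34 sites in the enzyme-only control. Of the 31 positions, 7 were shared.

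WLS, the gene of the carrier that brings Wnt proteins to the cell surface, had a fully intronic locus with a similar contrast. PB.1822 lay at chr1:68108902-68109756 (-) and had 21 reads and 15 sites in RBFOX2-INSCRIBE against 17 reads and 1 site in the enzyme-only control. The 2 sites printed above, 14 and 17 nt 3′ of the hexamer, were converted on 3 and 2 reads, and all other sites on 1. A or U preceded 14 of the 15. The surrounding WLS locus had 404 reads with 49 sites and 399 reads with 38 sites.

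**Figure D5:**
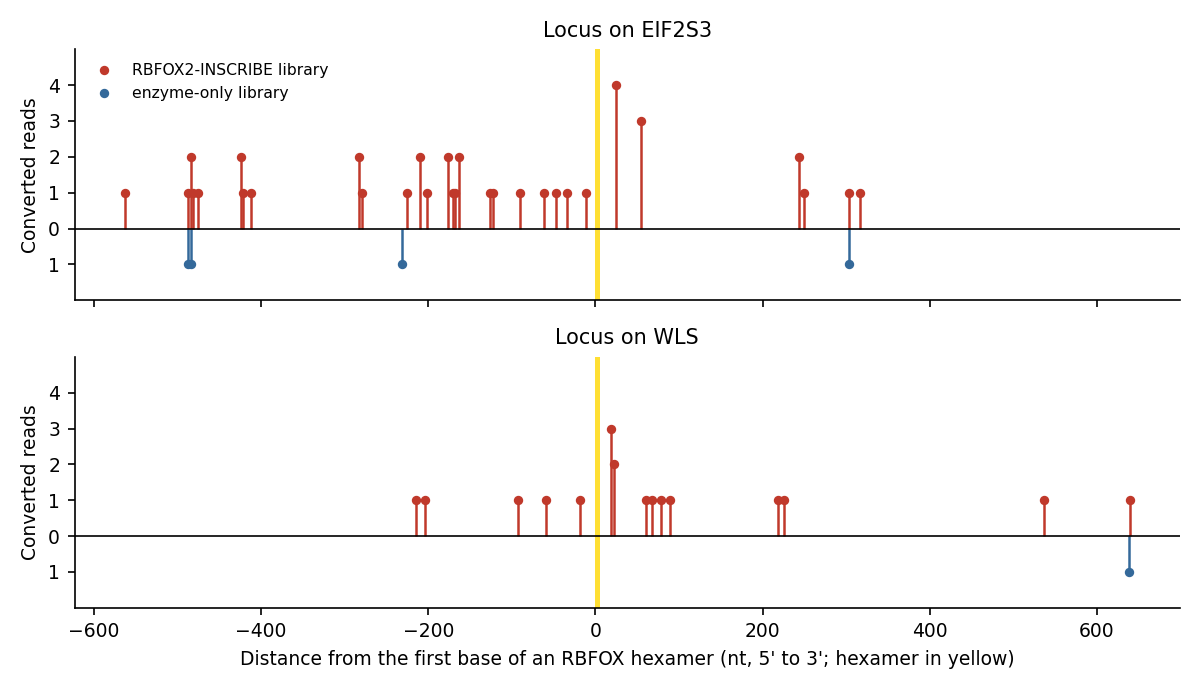
Converted reads (y axis) of each site of the EIF2S3 (top) and WLS (bottom) loci by distance from the first base of an RBFOX hexamer (x axis, nt; hexamer in yellow), for RBFOX2-INSCRIBE (red, upward) and the enzyme-only control (blue, downward). The highest counts, 4 on EIF2S3 and 3 on WLS, stand just 3′ of the hexamer. The enzyme-only control has 4 sites and 1 site listed under these loci, all with 1 converted read.

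The remaining loci chosen for sites near the hexamer lay on MPZL1 and RPS24. MPZL1, which encodes a cell surface glycoprotein, had a locus of 8 reads and 8 sites in RBFOX2-INSCRIBE, 6 of them near UGCAUG and all after A or U, and the locus was not listed in the enzyme-only control. RPS24, a gene of the small ribosomal subunit, had a locus in non-coding exons with 108 reads and 10 sites in RBFOX2-INSCRIBE and 114 reads and 9 sites in the enzyme-only control. Of these, 7 and 4 lay near the hexamer, so RPS24 carried edits there in both libraries. The locus on POLR2J3, a gene with near-identical copies among which reads can be split, was chosen for its reads. It had 224 reads with 5 sites and 204 reads with 1 site, all intronic, and 2 of the 5 lay near the hexamer.

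The loci with most unshared sites mainly lay in introns or non-coding exons. NFIA, a transcription factor gene, had 102 reads and 23 sites in RBFOX2-INSCRIBE and 129 reads and 14 sites in the enzyme-only control, all in non-coding exons and none near UGCAUG. A or U preceded 22 of the 23 and 11 of the 14. C5orf15 had 91 reads and 23 sites against 77 reads and 11 sites, mostly intronic. CSNK2A2, which encodes a catalytic subunit of casein kinase 2, went the other way, with 80 reads and 8 sites in RBFOX2-INSCRIBE and 115 reads and 23 sites in the enzyme-only control. Of these 23, 5 lay near the hexamer, and of the 8 none did. DCAF8, a substrate receptor gene of the CUL4 ubiquitin ligase, had 75 reads and 20 sites against 84 reads and 18 sites. MYCBP2, an E3 ubiquitin ligase gene, had 49 reads and 14 sites against 44 reads and 16 sites. Per read, DCAF8 thus had more sites in RBFOX2-INSCRIBE and MYCBP2 had fewer.

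Most of the loci with most reads had few sites and lay mainly in exons. The POLR2J3 locus described above was an exception, with all 5 sites intronic. On HNRNPL, a splicing regulator gene, locus PB.53419 had 835 reads and 1 site in the 3'UTR in RBFOX2-INSCRIBE, converted on 2 reads, and was not listed in the enzyme-only control. The surrounding HNRNPL locus had fewer reads, 482. AGAP4, a member of a family of near-identical copies, had 410 reads with 1 site and 405 reads with 2 sites, beside 75 and 46 reads at the surrounding locus. ACTN4, the gene of an actin-crosslinking protein, had 213 reads with 1 site and 181 reads with 1 site. CIRBP, which encodes a cold-inducible RNA-binding protein, had 197 reads with 7 sites and 174 reads with 9 sites, all in the 3'UTR, and A or U preceded only 3 of the 7 and 3 of the 9. ANKRD10 had 160 reads with 12 sites and 137 reads with 6 sites, of which A or U preceded 11 and 5. Introns held 8 of its 17 distinct sites.

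Identifiers of 6 loci exceeded 52855, the highest number of the isoform table, and what no model means for them depends on whether the tables share a collapse, which was not tested. They lay on HNRNPL, ACTN4, C1GALT1C1, TAF15, RBFOX2 and SMARCB1 within the span of another locus. The locus on RBFOX2 itself, PB.54527, had 121 reads with 8 sites in RBFOX2-INSCRIBE and 109 reads with 1 site in the enzyme-only control, in coding sequence and 3'UTR, with A or U before all 9 and none near UGCAUG. The modelled RBFOX2 locus had 247 and 221 reads. On TAF15, the gene of an RNA-binding protein of the FET family, 151 reads carried 1 site and 136 reads carried 3. On SMARCB1, a subunit gene of the SWI/SNF remodeling complex, 72 reads carried 3 sites in RBFOX2-INSCRIBE alone.

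Non-coding and intergenic loci were few. Among lncRNA loci, RASAL2-AS1 had 158 reads with 1 site and 147 reads with 2 sites, none after A or U. Only 1 of these 3 sites lay in the annotated gene, and the other 2 were intergenic. DUXAP8, a lncRNA gene with near-identical copies elsewhere, had 128 reads with 6 sites and 154 reads with 3 sites, and up to 4 converted reads at a site in each library. Reads of pseudogenes may be hard to place against their parent genes, which was not tested here. Among pseudogenes, FAM86JP had 59 reads and 1 site and LRRC37A4P 19 reads and 1 site in RBFOX2-INSCRIBE alone. NSFP1 had 23 reads and 1 site in the enzyme-only control alone. The intergenic locus PB.49716 at chr22:12167572-12168558 (-) had 22 reads and 8 sites in RBFOX2-INSCRIBE, of which 6 were shared positions. PB.27406 at chr9:66270917-66272425 (+) had 24 reads and 5 sites in the enzyme-only control, and PB.28162 at chr9:97983152 (+) had 11 reads and 1 site in RBFOX2-INSCRIBE.

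Adenine-rich sequence occurred about as often after these loci as before them. At least 12 A among 20 bases of the genome occurred within 1000 nt 3′ of the last site at 70.0% (67.4 to 72.6) of the loci in RBFOX2-INSCRIBE and 71.6% (69.0 to 74.0) in the enzyme-only control. Within 1000 nt 5′ of the first site it occurred at 69.3% (66.6 to 71.9) and 69.4% (66.8 to 71.9). At loci with a model the 3′ side was higher, 75.7% and 76.1% against 61.4% and 61.1%. With at least 15 A among 20, loci without a model had 17.0% and 17.1% on the 3′ side and 21.3% and 21.4% on the 5′ side, the lower share being 3′. The ends of the reads are not in the tables, so the priming position of each read is unknown.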

How the data were processed

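Edit tables of 2 long-read libraries, 1 per group by the labels, were analysed. Per the labels, cDNA was made with a PacBio Iso-Seq kit and mapped to hg38. Counts of converted reads and counts of reads per locus were used as deposited by the authors, and the deposited edit fraction is their ratio. The deposited confidence score was not used. The study's methods name ccs, skera, lima, refine, pbmm2 and IsoQuant for its long reads, but the step that gave these collapse identifiers is not given in the sources used here. The methods also describe further replicates that were not analysed here.

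Sites were annotated on the same strand with GENCODE 44 (bedtools 2.31.1), in the order coding sequence, 3'UTR, 5'UTR, non-coding exon, intron. A locus took the gene holding most of its sites, exons first. Sequence comparisons used only sites that 1 library listed. Intervals are 95% exact Clopper-Pearson or Poisson (scipy 1.17.1), and the sequence counts were tested on simulated data. Totals of 2431345 and 2233600 reads set the depth. Members and lists were chosen with earlier results of these data known. Loci named by rule were the 8 with most reads in each library, the 5 with most unshared sites, the 3 with most reads of each gene type and of intergenic loci, those on listed genes, and those of the 6 hexamer-near sites with most converted reads. 1 lncRNA locus that this rule selects is not reported here, because levels of its gene mark the sex of cells.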

Additional observations from a re-analysis of the deposited data

How the results depend on the processing

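Of 74 recomputed values, 34 stayed within the interval of the reported value and 40 did not. The cause of the shifts was not tested beyond what each restriction removes. Values are given for RBFOX2-INSCRIBE first and the enzyme-only control second. With loci of at least 10 reads, the loci without a model were 3.33% and 4.12% of loci and 0.868% and 1.16% of sites, with 11.6 and 11.96 sites per 100 reads against 24.0 and 22.1 over all loci. Introns then held 68.9% and 74.1% of the sites and the 3'UTR 12.4% and 8.50%, protein-coding genes held 91.8% of the loci in RBFOX2-INSCRIBE, and 5.32% of its sites had at least 2 converted reads. The A or U ratio was 1.54 and 1.45, and shared sites, with at least 10 reads in both libraries, were 7.75% and 8.49%. With loci of at least 3 sites, they were 4.84% and 4.81% of loci and 1.56% and 1.77% of sites, with a median of 7 and 8 reads. Leaving out shared sites gave 2.57% and 3.09% of sites, and 2.56% and 2.66% of sites with at least 2 converted reads. Counting the 3'UTR before coding sequence gave it 7.41% and 6.06%. With at least 2 converted reads the A or U ratio was 1.66 and 1.53, and the UGCAUG ratio was 4.19 (1.86 to 7.82) and 1.03 (0.026 to 5.55). The intervals of the UGCAUG ratio overlapped. The value of RBFOX2-INSCRIBE rests on 8 of 72 sites, and some of the 8 lay in the same locus, such as 2 on WLS. With a window of 20 nt the UGCAUG ratio of RBFOX2-INSCRIBE was 2.04 and with 200 nt 1.21. The A-rich comparison, as the ratio of the 3′ to the 5′ side, was 1.01 and 1.03, and became 1.05 and 0.988 with 300 nt and 0.798 and 0.799 with at least 15 A among 20, where the 3′ side was the lower. Added after the data were seen, leaving out sites in exons of isoform models raised the intronic share to 91.1% and 92.3%, and 1 site per locus gave the UGCAUG ratio of 1.40 in RBFOX2-INSCRIBE.

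Repeat-masked sites were not run, because the genome used here is not soft-masked. No paired analysis was possible because each group has 1 library and the labels give them different replicate numbers. Depth limits the comparison of single loci, since the median locus had 4 or 5 reads.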
